A study of Mus musculus with 9 samples.

Results

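The genes described here are named as protein subunits of the mitochondrial ribosome (Mrpl for the large subunit, Mrps for the small subunit). They were taken as every protein-coding gene whose symbol is Mrpl or Mrps followed by a number and at most 1 letter, which gave 78 of the 56748 genes listed. The rule uses names only and no measured value. By structure, Mrps30 and Mrps18a belong to the large subunit and Mrps36 to neither. Liver poly(A) RNA came from male C57BL/6J mice, 28 weeks old, all of which had received a high-fat diet for 20 weeks from 8 weeks of age. In the last 4 weeks, 5 mice were injected daily into the peritoneum with formoterol at 1 mg/kg, a long-acting beta2-adrenergic agonist that acts through cyclic AMP, and 4 mice with the vehicle, DMSO. There was no group on normal chow, so each comparison is formoterol against vehicle on the high-fat diet. Group membership of each library follows the suffix of its column name together with the group sizes, and 1 mouse per library was assumed. Were an animal the source of several libraries, the p-values would speak only to variation between these samples, part of which may be technical. Libraries are named by their animal code: M56, M58, M59 and M60 for vehicle, and M46, M47, M48, M49 and M50 for formoterol.

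The mitochondrial ribosome sits in the matrix and makes only the proteins encoded by mitochondrial DNA, all of them core subunits of the respiratory chain and the ATP synthase. Its ribosomal RNAs come from the mitochondrial genome, whereas every protein subunit is encoded in the nucleus, made in the cytosol and imported. Part of the subunits descend from bacterial ribosomal proteins and form the decoding site, the peptidyl transferase centre and the exit tunnel, and the rest are found only in mitochondrial ribosomes and mostly lie on the surface. Liver depends on this machinery because hepatocytes run fatty acid oxidation and the urea cycle in mitochondria.

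The start regions of these genes were read for 5 short motifs, because binding sites for the ETS factor GABPA, for NRF1 and for YY1 are known features of nuclear genes for mitochondrial proteins, and because CREB is the classical transcription factor downstream of cyclic AMP. RefSeq promoters on GRCm38.p6, which span 250 bases before and 50 after the annotated start, were matched for 69 of the 78 genes. The letters searched, on both strands and allowing matches to overlap, were CCGGAAG for GABPA, GCGCATGC for NRF1, AAGATGGC for YY1, TGACGTCA for CREB and CACGTG for the E-box. GABPA letters were found in 36.2% of the 69 promoters, against 9.12% of all 27025 promoters and 18.5% of the 9386 promoters of protein-coding genes tested in these livers. YY1 letters were found in 17.4% (2.88% of all promoters and 4.79% of those of tested coding genes), and NRF1 letters in 11.6% (2.8% and 5.51%). CREB letters were present in 2 promoters, those of Mrpl49 and Mrpl16, or 2.9% (1.88% and 3.15%), and the E-box in 7.25% (7.24% and 10.2%). At least 1 of the 5 motifs was found in 40 of the 69 promoters (58%), against 20.8% of all promoters. That combined share was not taken for promoters of tested coding genes, where each single motif was more frequent than in all promoters. A match describes the letters in the window and is not evidence of binding.

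Promoters of 5 genes are shown because they span the pattern. Mrpl14 and Mrpl27 had the smallest p-values between formoterol and vehicle, Mrpl33 carries NRF1 and GABPA letters side by side at its start, Mrpl49 holds CREB letters, and Mrps18b had the lowest log2 fold change. Each runs 5′ to 3′ on the strand of its gene, with motif letters in capitals, and positions count from the annotated start. The regions are chr17:45686099-45686398 on the plus strand for Mrpl14, chr11:94653541-94653840 on the plus strand for Mrpl27, chr5:31613701-31614000 on the plus strand for Mrpl33, chr19:6057706-6058005 on the minus strand for Mrpl49 and chr17:35916391-35916690 on the minus strand for Mrps18b, all on GRCm38.p6. In Mrpl27 the GABPA letters begin at position −55. In Mrpl33 the NRF1 letters begin at −12 and the GABPA letters at −3. In Mrpl49 the CREB letters begin at −154 and the YY1 letters at 17. In Mrps18b the NRF1 letters begin at −223 and at 29 and the GABPA letters at 44, all on the opposite strand. The window of Mrpl14 holds none of the 5 motifs.
Mrpl14: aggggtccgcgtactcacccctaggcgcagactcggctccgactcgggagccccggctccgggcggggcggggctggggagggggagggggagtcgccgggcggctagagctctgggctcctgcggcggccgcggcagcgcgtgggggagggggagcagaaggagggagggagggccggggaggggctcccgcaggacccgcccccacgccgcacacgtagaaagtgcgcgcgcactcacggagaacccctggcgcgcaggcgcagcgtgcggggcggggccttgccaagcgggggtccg
Mrpl27: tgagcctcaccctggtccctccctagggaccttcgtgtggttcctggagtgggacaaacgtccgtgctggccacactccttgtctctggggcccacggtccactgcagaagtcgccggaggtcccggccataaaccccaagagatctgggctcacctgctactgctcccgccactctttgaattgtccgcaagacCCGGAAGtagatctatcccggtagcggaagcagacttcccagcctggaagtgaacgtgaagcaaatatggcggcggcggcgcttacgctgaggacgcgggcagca
Mrpl33: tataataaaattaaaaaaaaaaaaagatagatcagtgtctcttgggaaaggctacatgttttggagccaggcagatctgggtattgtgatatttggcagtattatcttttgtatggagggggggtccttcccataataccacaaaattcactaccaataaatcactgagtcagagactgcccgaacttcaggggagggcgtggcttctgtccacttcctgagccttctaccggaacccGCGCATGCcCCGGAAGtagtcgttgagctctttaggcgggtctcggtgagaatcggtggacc
Mrpl49: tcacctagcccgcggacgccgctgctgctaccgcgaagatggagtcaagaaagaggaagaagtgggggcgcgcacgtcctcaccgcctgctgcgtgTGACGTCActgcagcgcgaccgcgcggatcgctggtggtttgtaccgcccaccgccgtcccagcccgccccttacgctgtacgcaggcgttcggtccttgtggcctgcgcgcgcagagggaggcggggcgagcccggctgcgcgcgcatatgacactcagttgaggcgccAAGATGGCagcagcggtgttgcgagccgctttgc
Mrps18b: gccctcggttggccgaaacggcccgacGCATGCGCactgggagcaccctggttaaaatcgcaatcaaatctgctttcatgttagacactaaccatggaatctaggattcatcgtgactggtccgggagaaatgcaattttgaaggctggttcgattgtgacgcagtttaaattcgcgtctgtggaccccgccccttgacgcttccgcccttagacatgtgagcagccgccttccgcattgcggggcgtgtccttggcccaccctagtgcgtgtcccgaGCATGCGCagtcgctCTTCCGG

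Between formoterol and vehicle, most mitochondrial ribosomal protein genes had higher mean levels in the formoterol livers, by small amounts. Of the 77 genes with enough counts to test, 69 (89.6%) had a positive log2 fold change, against 48.7% of the 13042 genes tested in all. Their median log2 fold change was 0.34, or 1.26-fold, against −0.01 over all genes tested, and single genes ranged from −0.48 (Mrps18b) to 0.80 (Mrpl27; Mrpl33 was highest once the trend with gene length was removed). At an unadjusted p under 0.05 by edgeR's quasi-likelihood test, 31 of 77 (40.3%) were higher in the formoterol livers, against 9.03% of all genes tested, and 0 were lower, against 5.53%. With Benjamini-Hochberg adjustment over all genes, edgeR called 0 of the 77 at an adjusted p under 0.05 (0% of all genes tested). The smallest adjusted p was 0.159 among these genes (Mrpl14) and 0.136 over all genes. DESeq2 called 3 of them higher (Mrpl14, Mrpl27 and Mrpl23; 2.35% of all genes tested, in either direction). Members vary together, so their count is not a sum of independent results. The median correlation of 2 members over the 9 libraries was 0.59, and 0.51 after the group means were subtracted. These correlations share the libraries and their composition and are given as a description.

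**Figure D1:**
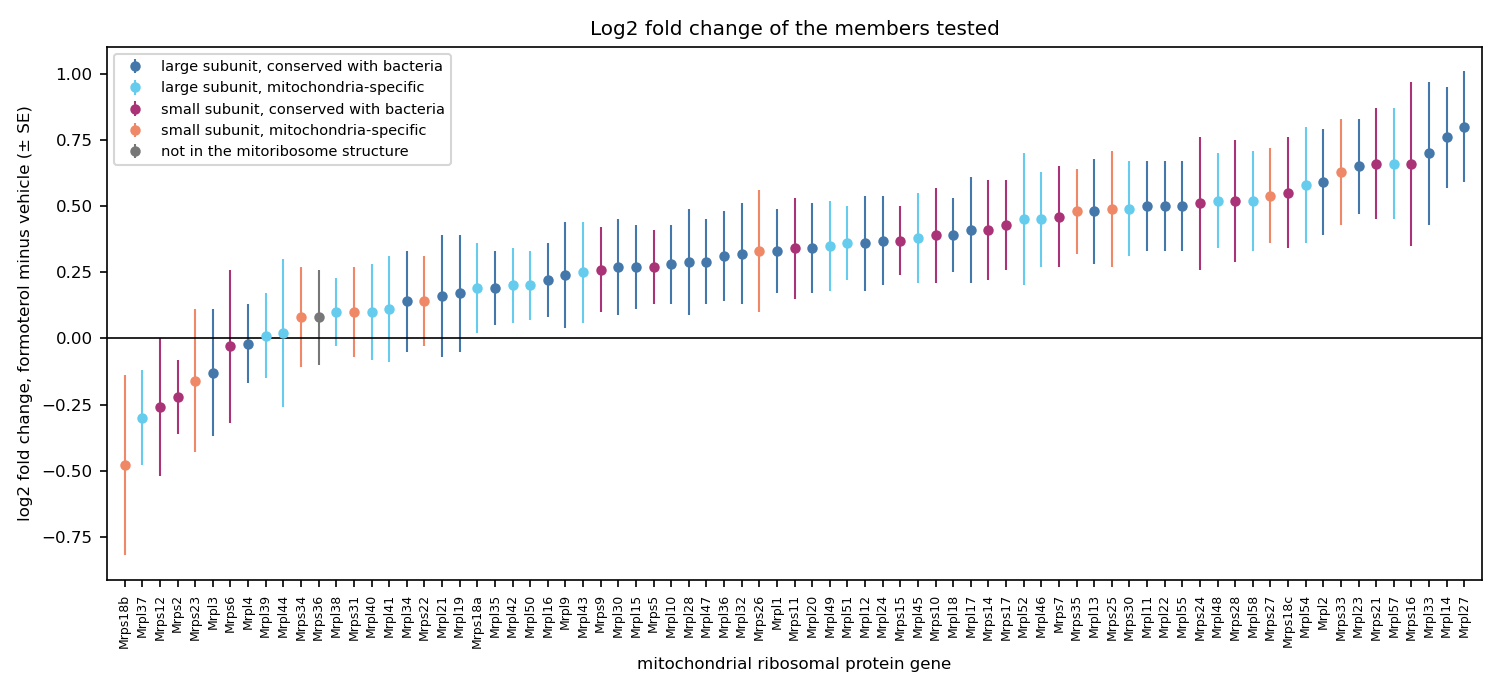
Log2 fold change (formoterol minus vehicle, ± SE) of each of the 77 genes tested, in rising order and coloured by structural class. The 8 genes below 0 lie between −0.48 and −0.02, and the other 69 reach 0.80.

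The groups of livers overlapped for most single genes. Every formoterol library was above every vehicle library for 7 of 77 genes (9.09%, against 2.45% of all genes tested): Mrpl14, Mrpl11, Mrps27, Mrpl58, Mrps15, Mrpl18 and Mrpl51. Every formoterol library was below every vehicle library for 0 of them, against 2.38% of all genes. The gaps were narrow in several cases: for Mrpl14 the highest vehicle library had 34.7 CPM (counts relative to library size, scaled with TMM factors) and the lowest formoterol library 34.8, and for Mrps27 these were 14.1 and 14.2. For Mrpl18 both were 33.6 CPM when rounded, so its groups separated only beyond the digits shown.

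Library by library, the genes were highest in formoterol livers M46 and M48 and lowest in vehicle liver M56. A score was taken as the mean over the 77 genes of log2 CPM minus the mean of the 9 libraries. It was −0.39 in M56, −0.13 in M58, −0.15 in M59 and 0.01 in M60, and 0.42 in M46, 0.10 in M47, 0.29 in M48, −0.05 in M49 and −0.09 in M50. Formoterol livers M49 and M50 thus lay among the vehicle livers and below M60, and the groups overlapped. M46 was the highest library for 45 of the 77 genes and M56 the lowest for 48. Summed over members, levels were 2136 ± 336 CPM (SD, n = 5) with formoterol and 1671 ± 171 CPM (SD, n = 4) with vehicle. As a share of raw counts they made up 0.203 ± 0.0321% and 0.177 ± 0.0189%.

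**Figure D2:**
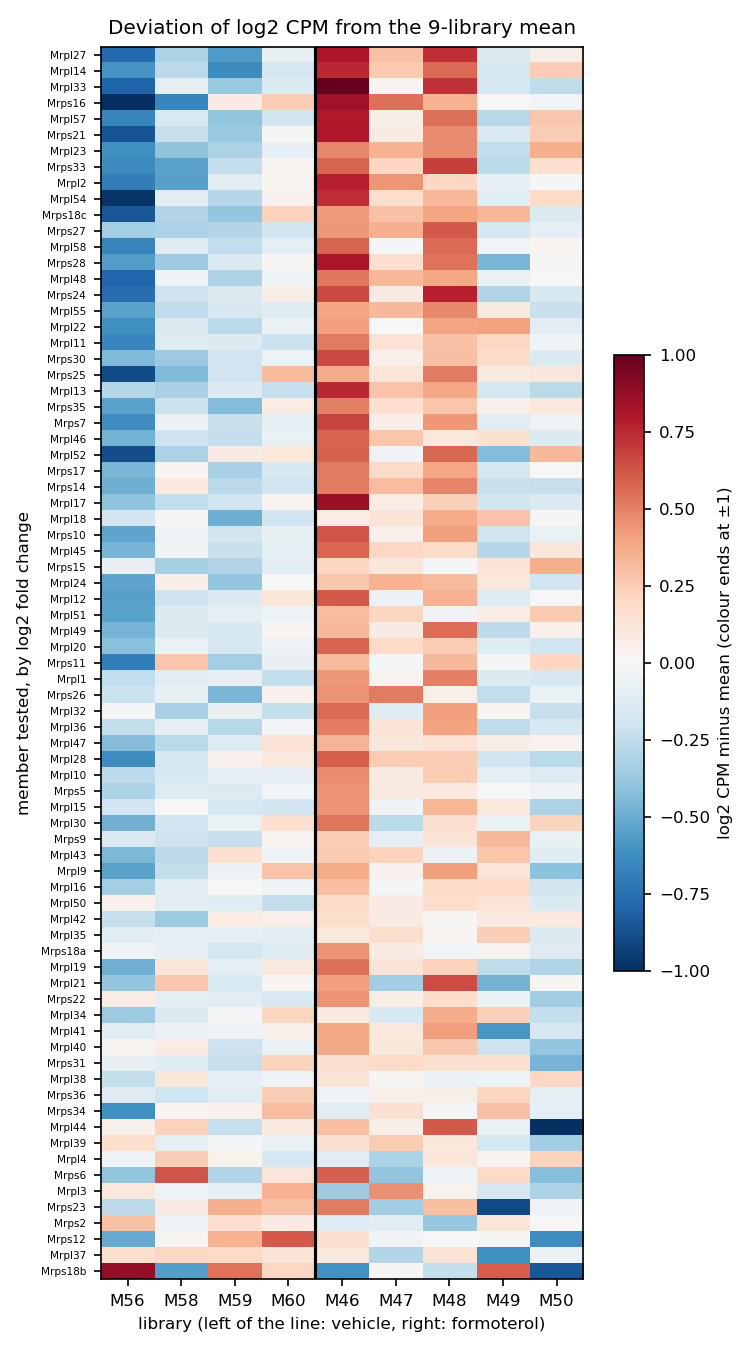
Deviation of log2 CPM from the 9-library mean for each gene tested (rows, ordered by log2 fold change) in each library (columns, vehicle left of the line). The columns of M46 and M48 are mostly red, that of M56 mostly blue, and those of M49 and M50 are mixed.

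The count of genes higher rested in part on the libraries at the extremes. At an unadjusted p under 0.05 it was 15 of 77 without vehicle library M56 (5.77% of all genes) and 18 without formoterol library M46 (6.26%). Without M49 it was 41 (12.6%), and edgeR with Benjamini-Hochberg adjustment then called 7 of the 77, all higher (5.51% of all genes tested): Mrpl14, Mrpl23, Mrpl27, Mrpl57, Mrps33, Mrps21 and Mrps27, with adjusted p from 0.0114 to 0.0473. Without both M46 and M49, a choice made after the data were seen, it called Mrpl14, Mrpl27 and Mrpl23 (2.46% of all genes). With no filter on low counts it called Mrpl27, Mrpl14 and Mrps21 (1.09% of all genes), and 14, all higher, were called by limma-voom when libraries were weighted by quality (10.8% of all genes).

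Several measures of the libraries moved with the score. The mitochondrial genome took 28.4, 34, 30 and 23.4% of counts in vehicle libraries M56, M58, M59 and M60, and 16.4, 22.5, 18.1, 25.1 and 38.6% in formoterol libraries M46, M47, M48, M49 and M50. The highest member scores were thus in the libraries with the lowest mitochondrial shares, M46 and M48. When counts were scaled by library totals, which include those mitochondrial counts, only 6 of the 77 genes were higher at an unadjusted p under 0.05 (3.58% of all genes, with 467 genes higher and 1292 lower, against 1178 and 721 with TMM factors). Under that scaling the median over all genes tested moved to −0.16 and that of the members to 0.19. The distance between them was 0.35, as with TMM factors. A change of scaling factors shifts all genes by about the same amount, so this distance cannot speak to the mitochondrial share. With only nuclear protein-coding genes in the fit, 31 members were higher at an unadjusted p under 0.05 (8.95% of all genes in that fit). Their median was then 0.34, against −0.02 over all genes in that fit. The part of the mitochondrial share in the result was not tested.

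Short genes also ranked higher in the formoterol libraries. Across the 11743 protein-coding genes tested, which are not independent replicates, gene length and log2 fold change had a Spearman correlation of −0.24, and the genes of the mitochondrial ribosome are short, with a median length of 2533 bp against 4229 bp over all genes tested. The correlation of deviation from the mean with length was 0.26, 0.20, 0.16 and −0.05 in the vehicle libraries (M56, M58, M59, M60) and −0.22, −0.15, −0.26, 0.07 and 0.15 in the formoterol libraries (M46, M47, M48, M49, M50). Libraries with a negative value had the higher member scores. Among the 77 members themselves the correlation of log2 fold change with length was −0.06, with a median of 0.35 for the 39 shorter and 0.32 for the 38 longer genes. With each library's length trend removed, the member median was 0.29 against 0.07 over all genes, and 30 members were higher at an unadjusted p under 0.05 (10.8% of all genes, with 1412 genes higher and 538 lower), 22 of them shared with the 31. Single genes moved more than the median did: the highest log2 fold changes were then those of Mrpl33 (0.92) and Mrpl23 (0.78), Mrpl27 had 0.53, and Mrps18b remained the lowest at −0.52. This ranking rests on the listed gene lengths, 7326 bp for Mrpl33 and 4883 bp for Mrpl23, which need not be those of the liver transcripts. The score of M46 was then 0.45, that of M48 0.24 and that of M56 −0.33.

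**Figure D3:**
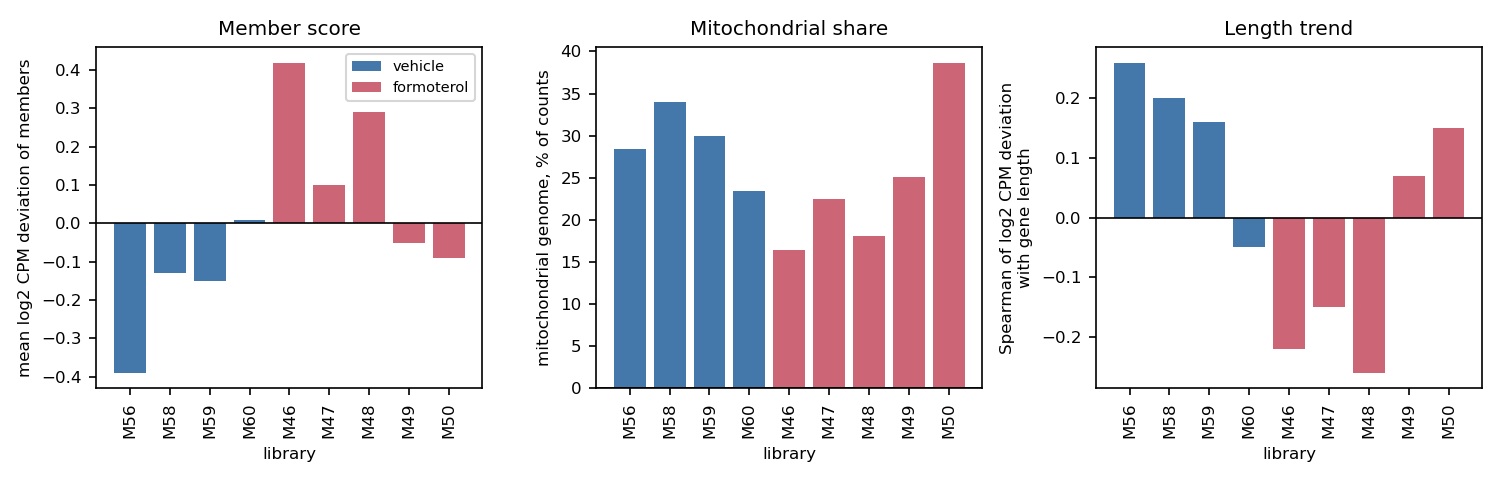
Member score (mean log2 CPM deviation), percent of counts from the mitochondrial genome, and Spearman correlation of log2 CPM deviation with gene length, 1 bar per library. M46 and M48, with the highest scores of 0.42 and 0.29, have the lowest mitochondrial shares, 16.4 and 18.1%, and negative length correlations.

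Cell type markers were read in the same libraries, and in bulk liver fewer cells of a type and less RNA per cell cannot be told apart. The 12 hepatocyte markers, which check the tissue label, were abundant in every library (Alb from 63462 to 105058 CPM). Their summed level was 91841 to 105637 CPM in vehicle and 107335 to 148738 CPM in formoterol livers, with no overlap and the highest values in M48 and M46. Alb makes up most of that sum, and by itself it overlapped (72733 CPM in formoterol liver M50, 73380.4 CPM in vehicle liver M60). Of the 12, 8 had a positive log2 fold change and 5 were higher at an unadjusted p under 0.05. Only Apoa1 had groups that did not overlap, and Hnf4a (−0.10), Tat (−0.07), Cyp3a11 (−0.33) and Apob (−0.20) had negative log2 fold changes. Stellate and fibroblast markers summed to 262 to 443 CPM in vehicle and 84.1 to 419.9 CPM in formoterol livers, with 0 of 10 positive, 0 lower at an unadjusted p under 0.05 and the lowest value in M46. Endothelial markers summed to 86.5 to 109 and 33.6 to 111 CPM, with 1 of 8 positive and 0 lower at that p. Monocyte and macrophage markers spanned 116 to 251 and 77.4 to 288 CPM, and of the 6 of 8 that could be tested 2 were lower at an unadjusted p under 0.05 (Lyz2 and Ccr2). Kupffer cell markers spanned 35.4 to 71.6 and 35.5 to 74 CPM, and cholangiocyte markers 81.9 to 196 and 70.1 to 258 CPM, with 0 of either list higher or lower at that p. Spp1, which is in both the monocyte and the cholangiocyte lists and makes up most of both sums, had 70.7 to 178 CPM in vehicle and 62.6 to 238 CPM in formoterol livers, so these ranges are not independent. Among the adipocyte markers, Plin1 was at 0 in every library, while Cfd, which accounts for nearly all of that list, ranged from 6.67 to 19.7 CPM in vehicle and from 20.3 to 107 CPM in formoterol livers. Lymphocyte markers did not exceed 2.63 CPM (T and NK) and 12.4 CPM (B and plasma) and neutrophil markers 4.14 CPM in any library, with Ly6g at 0, and erythroid markers spanned 183 to 583 and 288 to 550.1 CPM. Of the 2 neutrophil markers tested, Csf3r was lower at an unadjusted p under 0.05. It did not overlap, with 1.32 to 2.91 CPM in vehicle and 0.407 to 1.24 CPM in formoterol livers. The other, S100a9, had a positive log2 fold change (0.64, SE 0.79). The part of cell composition in the member values was not tested.

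In the large subunit, the genes conserved with bacteria held the smallest p-values. Of 30 tested, 28 had a positive log2 fold change and 11 were higher at an unadjusted p under 0.05, with a median of 0.32 and a range from −0.13 (Mrpl3) to 0.80 (Mrpl27). For this class and those below, the shares over all genes tested were 48.7% positive and 9.03% higher. Mrpl14 (ENSMUSG00000023939; chromosome 17, 45997248 to 46009421, plus strand, mm39) encodes a protein of the face that meets the small subunit. It had 25.9, 32.5, 25.2 and 34.7 CPM in vehicle livers M56, M58, M59 and M60, and 65.7, 46.7, 57.8, 34.8 and 46.4 CPM in formoterol livers M46, M47, M48, M49 and M50. The formoterol livers were all higher, although M49 was close to M60. The means were 50.3 ± 11.9 and 29.6 ± 4.74 CPM, a log2 fold change of 0.76 (SE 0.19, unadjusted p = 9.46e-04, edgeR Benjamini-Hochberg adjusted p = 0.159), and 0.48 with the length trend removed (the gene is listed at 949 bp). Mrpl14 overlaps Tmem63b on the opposite strand, and the strand setting of the counting is not given in the sources used here, so reads of the shared part cannot be told apart. Tmem63b itself had 20.4 CPM with vehicle and 20.2 with formoterol (log2 fold change −0.01, SE 0.21).

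Mrpl27 (chromosome 11, 94544593 to 94550915) encodes a protein next to the peptidyl transferase centre. Its values were 27.6, 37.9, 31.8 and 44.8 CPM in the vehicle livers and 82.5, 57.7, 78.5, 42.6 and 49.1 CPM in the formoterol livers, in the same order of libraries. Here M49 fell just below M60 and the other formoterol livers were above all vehicle livers. The log2 fold change was 0.80 (SE 0.21, unadjusted p = 0.00179, DESeq2 adjusted p = 0.0254), and 0.53 with the length trend removed (985 bp). For Mrpl23 (chromosome 7, 142086423 to 142094484), a protein at the rim of the exit tunnel, the vehicle livers had 13.9, 16.1, 17.1 and 20.1 CPM and the formoterol livers 29.8, 27.1, 29.6, 18 and 27.4 CPM. Of the formoterol livers, 4 lay close together and M49 lay inside the vehicle range. The log2 fold change was 0.65 (SE 0.18, unadjusted p = 0.00246), and a processed copy named Mrpl23-ps1 is listed in the table, so that its reads may be split.

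Mrpl11 and Mrpl2 completed the conserved large subunit genes among the 10 smallest p-values. Mrpl11 (chromosome 19, 5012175 to 5017027), at the base of the stalk that recruits translation factors, had 11.7, 16.8, 16.7 and 15.8 CPM in vehicle livers and 26.3, 20.3, 22.5, 21.2 and 17.8 CPM in formoterol livers. The groups did not overlap, and the log2 fold change was 0.50 (SE 0.17, unadjusted p = 0.00928). Mrpl2 (chromosome 17, 46957155 to 46961065), which binds ribosomal RNA near the peptidyl transferase centre, had 26.7, 29.6, 40.2 and 43.8 CPM in vehicle livers against 74, 58.5, 49.9, 40.7 and 42.5 CPM. M49 and M50 lay below M60, and the log2 fold change was 0.59 (SE 0.20, unadjusted p = 0.0102), or 0.39 with the length trend removed (1170 bp). Among the other genes of this class, Mrpl33 had a log2 fold change of 0.70 with a wide spread (SE 0.27), since M46 and M48 had 38.7 and 30.2 CPM and the other formoterol livers 15.4 to 18.6 CPM against 10.5 to 17.2 CPM with vehicle. The stalk proteins Mrpl10 and Mrpl12 had 0.28 (SE 0.15) and 0.36 (SE 0.18).

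Of the mitochondria-specific genes of the large subunit, 19 of 20 tested had a positive log2 fold change and 8 were higher at an unadjusted p under 0.05, with a median of 0.30. Mrps30 and Mrps18a are in this class, and Mrps30 is among the 8. Mrpl57 (chromosome 14, 58063691 to 58066753), a small mitochondria-specific subunit, was largest. It had 12.3, 17.5, 14.8 and 17.1 CPM in vehicle livers and 33.6, 20.2, 28.5, 16 and 23.4 CPM in formoterol livers, with M49 inside the vehicle range (log2 fold change 0.66, SE 0.21, unadjusted p = 0.00697). Mrpl58, a peptidyl-tRNA hydrolase built into the ribosome that can release stalled chains, had groups that did not overlap: 15.7 to 23.4 CPM with vehicle and 24.5 to 37.3 CPM with formoterol (log2 fold change 0.52, SE 0.19). Mrpl53, of the same class, could not be tested: all 9 libraries held 0 counts of it (790 bp, chromosome 6, 83086021 to 83086920), and it is the only member listed at 0 throughout.

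**Figure D4:**
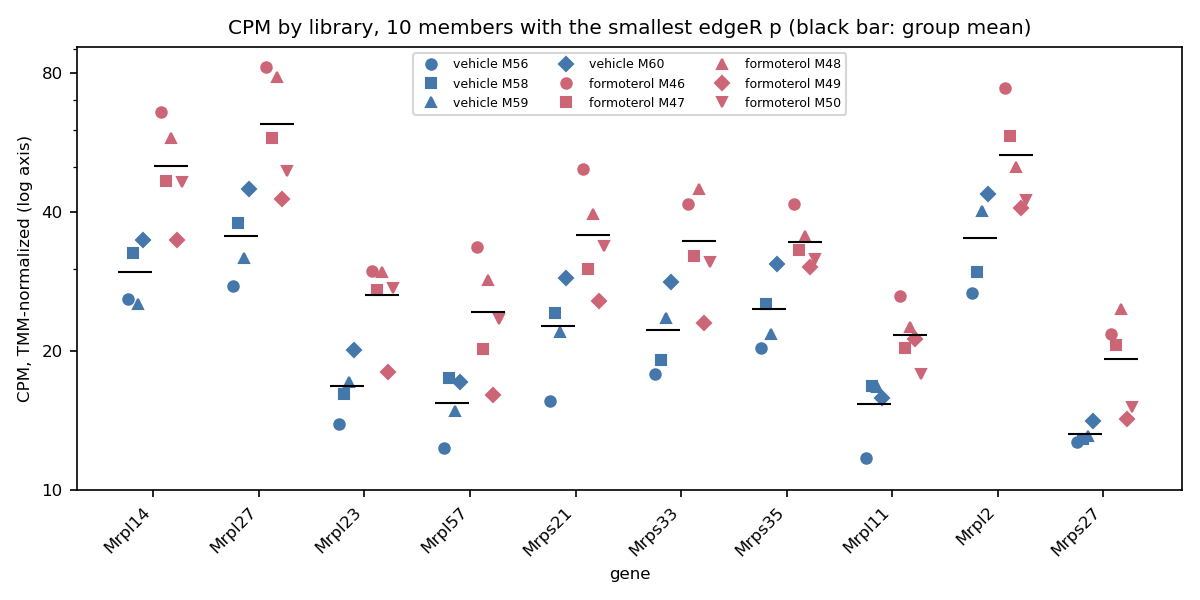
CPM (log axis) in each library for the 10 genes with the smallest edgeR p, with a bar at each group mean. For Mrpl14, Mrpl11 and Mrps27 all formoterol points lie above all vehicle points, and for the other 7 at least 1 formoterol library, M49 in each case, lies below the highest vehicle library.

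In the small subunit, the conserved genes had a median of 0.40 over 16 genes, of which 13 were positive and 8 higher at an unadjusted p under 0.05. Medians with the length trend removed were 0.34 for this class, 0.35 for the mitochondria-specific genes of the small subunit, and 0.31 and 0.28 for the conserved and mitochondria-specific genes of the large subunit, so the order of the classes turned with that setting. The difference between classes was not tested. Mrps21 (chromosome 3, 95769946 to 95778831), a small protein of the platform, had 15.6, 24.2, 22 and 28.7 CPM in vehicle livers and 49.5, 30.1, 39.5, 25.6 and 33.7 CPM in formoterol livers. M49 lay below M60 and the rest were separate (log2 fold change 0.66, SE 0.21, unadjusted p = 0.00724). With the length trend removed it was 0.31, for a gene of 739 bp. Mrps16 had the same log2 fold change, 0.66, with a wider error (SE 0.31), since vehicle livers M56 and M58 had 2.8 and 4.69 CPM and M59 and M60 had 7.81 and 8.82 CPM, inside the formoterol range of 7.24 to 13.2 CPM, and it was 0.42 without M56. Mrps15 had 27.9 to 33.3 CPM with vehicle and 34.6 to 45.2 CPM with formoterol, with no overlap (log2 fold change 0.37, SE 0.13). At the decoding site Mrps12 had a log2 fold change of −0.26 (SE 0.26).

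The mitochondria-specific genes of the small subunit ranged from −0.48 (Mrps18b) to 0.63 (Mrps33). Of 10 tested, 8 were positive and 4 were higher at an unadjusted p under 0.05, with a median of 0.24. Mrps33 (chromosome 6, 39778738 to 39787922) had 17.8, 19.1, 23.5 and 28.2 CPM in vehicle livers and 41.5, 32, 44.8, 23 and 31.2 CPM in formoterol livers (log2 fold change 0.63, SE 0.20, unadjusted p = 0.00727). Mrps35 (chromosome 6, 146944262 to 146975489) had 20.3, 25.3, 21.7 and 30.9 CPM against 41.6, 33, 35.5, 30.4 and 31.6 CPM (log2 fold change 0.48, SE 0.16, unadjusted p = 0.00871). In both genes M49 was the lowest formoterol liver and lay below M60. Mrps27 (chromosome 13, 99481294 to 99552070), a pentatricopeptide repeat protein of the small subunit, had a narrow vehicle range of 12.7, 12.9, 13.1 and 14.1 CPM. Its formoterol livers had 21.7, 20.6, 24.6, 14.2 and 15.1 CPM, all higher, with M49 and M50 near the vehicle livers (log2 fold change 0.54, SE 0.18, unadjusted p = 0.0104).

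The 8 genes with a negative log2 fold change came from all 4 classes, and none was lower at an unadjusted p under 0.05 with all libraries. Mrps18b (chromosome 17, 36221271 to 36227281), 1 of the paralogues related to a bacterial small subunit protein, had 7.75, 2.88, 6.15 and 4.86 CPM in vehicle livers and 2.77, 4.25, 3.57, 6.43 and 2.35 CPM in formoterol livers. The groups overlapped (log2 fold change −0.48, SE 0.34), and without M49 it was lower (log2 fold change −0.75, unadjusted p = 0.0315, edgeR adjusted p = 0.168). Without M56 it was −0.26. The paralogues Mrps18a and Mrps18c had log2 fold changes of 0.19 (SE 0.17) and 0.55 (SE 0.21). Mrpl37 had 15, 15.4, 15.3 and 14.6 CPM with vehicle and 14.3, 10.9, 14.7, 8.72 and 12.8 CPM with formoterol (log2 fold change −0.30, SE 0.18). Its vehicle livers were close together and only M48 reached their range. Mrps12 had 3.9, 5.6, 7.03 and 8.45 CPM against 6.18, 5.39, 5.51, 5.56 and 3.59 CPM, and its formoterol values lay within the vehicle range apart from M50. Mrps2 had 41.3, 32.6, 37.9 and 35.7 CPM against 30.8, 31.4, 25.9, 36.8 and 33.8 CPM (log2 fold change −0.22, SE 0.14). Mrps23 had 5.71, 7.24, 8.79 and 8.39 CPM against 9.85, 5.39, 8.43, 3.66 and 6.71 CPM (log2 fold change −0.16, SE 0.27). These 2 genes overlapped between the groups as well. The remaining log2 fold changes were −0.13 for Mrpl3, −0.03 for Mrps6 and −0.02 for Mrpl4, all within their errors, and the sign of those 3 and of Mrps23 turned when a library or the tool was changed. Mrps36, which carries a ribosomal name but belongs to the 2-oxoglutarate dehydrogenase complex, had 7.75 ± 1.15 CPM with vehicle and 8.19 ± 0.668 CPM with formoterol (log2 fold change 0.08, SE 0.18).

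Levels per length spread widely, although the ribosome holds most of its proteins as single copies. On the scale of CPM per kb of the gene length listed in the table, which need not be the length of the liver transcript, Mrpl27 was highest at 51 over the 9 libraries, followed by Mrpl14 at 43.3 and Mrps21 at 40.4. In the vehicle livers Mrpl27 had 28, 38.5, 32.3 and 45.5 CPM per kb and in the formoterol livers 83.8, 58.6, 79.7, 43.3 and 49.8, a range that overlaps those of Mrpl14 (26.5 to 69.2) and Mrps21 (21.1 to 66.9). The lowest were Mrpl19 at 1.62, Mrps26 at 1.44 and Mrpl3 at 0.81 CPM per kb, with libraries from 1.13 to 2.31, from 1.03 to 2.02 and from 0.623 to 1.1. Mrpl3 therefore lay below every library of Mrpl19. Across the 77 genes, log2 fold change and mean CPM had a Spearman correlation of 0.32, given as a description.

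The 5 subunits of the mitochondrial ribosome whose symbols fall outside the rule had positive log2 fold changes too. Dap3, a GTP-binding protein of the small subunit, had 22.9, 29, 27.9 and 29.6 CPM in vehicle livers and 48.2, 35.2, 50.3, 32 and 31.4 CPM in formoterol livers, with no overlap (log2 fold change 0.53, SE 0.17, unadjusted p = 0.00903). Aurkaip1 and Chchd1 of the small subunit had 0.42 (SE 0.17) and 0.33 (SE 0.23), Gadd45gip1 of the large subunit 0.41 (SE 0.18) and Ptcd3 of the small subunit 0.14 (SE 0.17). Of the 5, Dap3, Aurkaip1 and Gadd45gip1 were higher at an unadjusted p under 0.05.

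Factors that work on or with this ribosome had median log2 fold changes between 0.06 and 0.18 by list. Of 16 translation factors and regulators, 12 were positive and 1 was higher at an unadjusted p under 0.05, Lrpprc, which stabilises mitochondrial messenger RNAs (log2 fold change 0.33, SE 0.14), and the median was 0.18. Of 25 assembly and ribosomal RNA modification genes, 19 were positive, with a median of 0.09. Rcc1l (0.56, SE 0.21) and Gtpbp10 (0.52, SE 0.21), which act in ribosome assembly, were among the 4 higher, and Rbfa, which matures the small subunit, was the 1 lower (−0.68, SE 0.30). Of 17 mitochondrial aminoacyl-tRNA synthetases, 10 were positive (median 0.06), with Tars2 (0.43, SE 0.15) and Nars2 (0.53, SE 0.22) higher and Lars2 lower at an unadjusted p under 0.05. Lars2 had 73.7, 166 and 98.4 CPM in vehicle livers M56, M58 and M59 but 10.9 CPM in M60, inside the formoterol range of 10.3 to 14.1 CPM (log2 fold change −2.78, SE 0.61). Its adjusted p was 0.167 by edgeR and 0.00234 by DESeq2. Of 13 genes of mitochondrial DNA transcription and replication, 9 were positive (median 0.12), with Ssbp1 (0.58, SE 0.17) and Polg2 (0.61, SE 0.21) higher. With the length trend removed, the medians of these 4 lists were 0.29, 0.19, 0.20 and 0.07 in the order given, and that of the ribosomal genes was 0.29, so the translation factors then equalled them. Differences between these lists and the ribosomal genes were not tested.

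The products and partners of this ribosome differed in pattern between the genomes. Of 79 nuclear genes of the respiratory chain, 72 were positive and 52 higher at an unadjusted p under 0.05, with a median of 0.50, and of 78 cytosolic ribosomal protein genes, 76 were positive and 48 higher, with a median of 0.57. Of 13 proteins that the mitochondrial ribosome makes, 4 genes were positive and 1 was higher (mt-Co3), with a median of −0.06. With the length trend removed, the medians of these lists were 0.36, 0.47 and −0.23 in the order given. Scores of the mitochondrially encoded list were −0.14, 0.21, −0.03 and −0.10 in the vehicle livers and −0.53, 0.11, −0.37, −0.38 and 1.22 in the formoterol livers. M50, which had the highest mitochondrially encoded score, had the lowest member score of the formoterol livers, and M46 was the reverse. The ribosomal RNAs of the mitochondrial ribosome are poorly sampled by poly(A) selection: mt-Rnr1 had 2059 ± 1216 CPM with vehicle (n = 4) and 1086 ± 654 CPM with formoterol (n = 5), and mt-Rnr2 3187 ± 2482 and 3064 ± 2905 CPM.

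**Figure D5:**
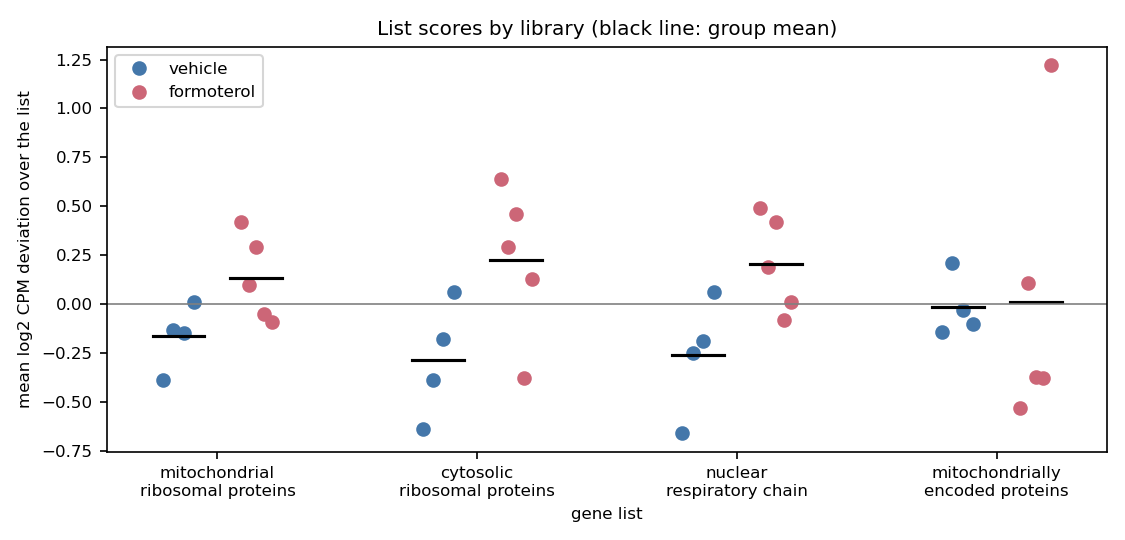
Score of each library (mean log2 CPM deviation over the list) for mitochondrial ribosomal proteins, cytosolic ribosomal proteins, the nuclear respiratory chain and mitochondrially encoded proteins, with a bar at each group mean. The nuclear lists are lowest in M56 and highest in M46, whereas the mitochondrially encoded list peaks at 1.22 in M50.

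The promoter letters were set beside the log2 fold changes. The 24 tested genes with GABPA letters had a median log2 fold change of 0.40, with 12 higher at an unadjusted p under 0.05, and the 44 matched genes without them 0.32, with 15 higher. Medians with and without NRF1 letters were 0.30 over 8 genes and 0.35 over 60, and with and without YY1 letters 0.31 over 12 and 0.36 over 56. The CREB letters were in Mrpl49 (0.35, SE 0.17) and Mrpl16 (0.22, SE 0.14), neither of which was higher at an unadjusted p under 0.05. These splits were not tested.

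On mm39 these genes often share their start region with a neighbour. A protein-coding gene on the opposite strand began within 1000 bp, head to head and without overlap, for 18 of 77 members (23.4%). This compares with 10.2% of 11730 nuclear protein-coding genes tested. The 17 partners tested had a median log2 fold change of 0.06, with 10 positive. At an unadjusted p under 0.05, 2 partners were higher and 0 lower. The 18 members had a median of 0.28, against 0.36 for the other 59. The partners higher were Fau, which encodes a cytosolic ribosomal protein and starts 59 bp from Mrpl49 (log2 fold change 0.76, SE 0.25), and Psma2, a proteasome subunit that starts 75 bp from Mrpl32 (0.38, SE 0.17). Ncapd2, a condensin subunit 100 bp from Mrpl51, had −0.78 (SE 0.40), while Mrpl51 had 0.36 (SE 0.14). Transcribed parts of 23 members overlap another tested gene, 20 of them on the opposite strand and 3 on the same strand. Mrpl46 and Mrps11 overlap each other at their starts on opposite strands and are not counted among the 18. Both had positive log2 fold changes, 0.45 (SE 0.18) and 0.34 (SE 0.19). Syvn1, which overlaps Mrpl49, had −0.49 (SE 0.15). Reads in shared parts cannot be told apart without a stated strand setting. Members lie on 17 chromosomes, most often on chromosome 11 (11 genes) and 17 (8 genes).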

How the data were processed

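Per the labels' protocols, column-purified and DNase-treated RNA was selected for poly(A), fragmented and primed at random. The deposited table holds raw counts per gene for 9 libraries, which the authors did not normalize. Alignment used HISAT2 2.0.5 and build mm39 per the submitters' processing notes, which also name DESeq2 without a version. No source used here gives the counting program, strand setting or annotation release, so reads of overlapping genes and of near-identical copies (Mrpl23-ps1, Mrpl48-ps, Mrpl27-ps and the Mrps36 copies) may be misassigned. Library totals were 12336665 to 20339665.

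Column suffixes HF and HD were read as formoterol and vehicle. All genes were fitted together in edgeR 4.0.16 (R 4.3.3), with filterByExpr (count at least 10, total at least 15; 13042 genes kept of 24041 with counts), TMM factors, the robust quasi-likelihood test without covariates and Benjamini-Hochberg adjustment over all genes tested, at 0.05. SE is the absolute log2 fold change divided by the square root of F. Scores used log2 CPM with a prior count of 2. The fits were tested on simulated data. Counts of libraries within a group differed by a chi-square of 24.3 to 225 per degree of freedom, so none was counted as a duplicate.

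The members, lists and motifs were chosen with earlier results of these data known. Values by library are given for the 10 members with the smallest p, the highest and lowest 3 per kb (ranges for 5 of these), the 5 lowest log2 fold changes and any member not tested, and at most 4 genes of each other list by smallest p. Fau, Psma2, Ncapd2, Syvn1, Tmem63b, Cfd, Csf3r, S100a9, Mrpl33, Mrpl10, Mrpl12, Mrpl58, Mrps15, Mrps18a, Mrps18c and Mrps36 were named after their values were seen. Structural classes follow mitochondrial ribosome nomenclature. Promoters are RefSeq windows on GRCm38.p6, matched by symbol, whereas gene coordinates are those of the table. Alternatives were RLE, upper-quartile and library-total scaling, no filter, DESeq2 1.42.0, limma-voom (limma 3.58.1) with and without quality weights, length trend removal (loess, span 0.5), nuclear protein-coding genes only, and leaving out each library or M46 and M49 together.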

Additional observations from a re-analysis of the deposited data

Results flagged for a closer look

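Mrpl23 in formoterol library M49 had 18 CPM, while the other 4 formoterol libraries had 27.1 to 29.8 CPM. The gap to the nearest library made up 0.776 of the whole range of the group, above Dixon's 95% critical value for 5 samples. It was the only such value among the 44 groups of libraries looked at. Chance gives about 1 in 20, so 1 flag among these groups is no more than chance would give. With M49 left out, the log2 fold change of Mrpl23 was 0.76 (SE 0.15, edgeR Benjamini-Hochberg adjusted p = 0.0147), against 0.65 (SE 0.18, adjusted p = 0.172) with all 9 libraries.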

How the results depend on the processing

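Over the 19 alternatives, 18 of them planned, the median log2 fold change of the members stayed positive, from 0.19 under library-total scaling to 0.40 without vehicle library M60. Members higher at an unadjusted p under 0.05 numbered 6 under library totals, and 15 (without M56) to 41 (without M49) when each library was left out; without M46 there were 18. Members lower at that p numbered 1 under library totals (9.91% of all genes lower) and 1 with limma-voom quality weights (14.2%), Mrpl37 in both. When each library was left out they numbered 0 to 1, the 1 being Mrps18b without M49 (10.8% of all genes lower). Members called at an adjusted p under 0.05 numbered 3 with DESeq2, 3 without the filter, 14 with quality weights, 3 without M46 and M49, and 0 to 7 when each library was left out (7 without M49). Limma-voom without weights and the other scalings called 0. By limma-voom without weights, 27 members were higher at an unadjusted p under 0.05 (8.37% of all genes tested). Direction was checked under every alternative for 21 members: the 10 with the smallest p, the 3 lowest per kb, those with a negative log2 fold change and the largest of each class. Of these, 4 changed sign: Mrps6 was 0.01 with limma-voom and −0.21 to 0.21 when each library was left out. Mrpl3 was 0.14 with quality weights, 0.02 with the length trend removed and 0.0023 without M46 and M49. Mrpl4 was 0.01 without M46 and M49 and −0.09 to 0.06 when each library was left out, and Mrps23 was −0.33 to 0.0033. With the length trend removed, Mrpl14 went from 0.76 to 0.48, Mrpl27 from 0.80 to 0.53, Mrpl2 from 0.59 to 0.39 and Mrps21 from 0.66 to 0.31. Apart from settings with fewer samples, the cause was not tested. No paired analysis was possible because the columns carry animal codes and not the replicate numbers of the labels. Those numbers count within each group, and the sample titles state no pairing of mice between the groups. With 4 and 5 livers, differences of the size seen here lie near the spread between mice, and members at a few CPM, such as Mrps18b and Mrps16, have the widest errors.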
